A study of Homo sapiens with 12 samples.

Results

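Cisplatin was set against cytochalasin D in H460 cells. Differences are between the 2 arrays of one drug and the 2 of the other, 4 of the 12 arrays of the study. The spread used in the tests came from 8 arrays, these and the arrays of cytarabine and paclitaxel. H460 is a human large cell lung carcinoma line that carries wild-type p53. The cisplatin cultures received 5 µM and the cytochalasin D cultures 0.2 µM, both for 24 h, and each of these 4 arrays set RNA of treated cells (channel 1) against RNA of untreated H460 cells (channel 2). The other arrays hold 5-fluorouracil (5-FU) at 1 µM, hybridised in both channel orientations, and cytarabine at 0.2 µM and paclitaxel at 5 nM, with treated RNA in channel 1, also for 24 h. Values are log ratios of treated over untreated RNA, taken as log2, with each array centred on its median. Because both drugs were hybridised in 1 orientation, a channel bias of equal size on all 4 arrays cancels in the difference. Whether it was equal was not tested. The distance of 1 drug from 0 keeps such a bias, so there it cannot be told apart from a change against untreated cells. The labels say neither whether the arrays of a drug came from separate cultures nor whether the untreated RNA was the same for both drugs. The p-values therefore measure only the spread between arrays, which may be technical, and a difference between untreated RNAs cannot be told apart from one between drugs. In such bulk RNA, fewer cells of a kind and less RNA per cell cannot be told apart either.

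Cisplatin forms platinum crosslinks between purine bases of DNA. Crosslinks that block replication and transcription activate the kinases ATR and ATM and stabilise the transcription factor p53, which induces genes of cell cycle arrest, repair and apoptosis. Cytochalasin D binds actin, caps the growing end of filaments and takes filaments apart. The balance of free and filamentous actin sets the activity of the SRF cofactors MRTF-A and MRTF-B, which bind free actin, and of YAP and TAZ, which respond to cell tension. In which direction cytochalasin D moved these factors was not tested here. Serum response factor (SRF) binds the CArG box in promoters of actin genes.

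The cisplatin arrays hold 7644 and 7557 values and the cytochalasin D arrays 7488 and 7513, of 8170 probes. Pearson's r across probes, which are not independent replicates, was 0.776 between the cisplatin arrays and 0.748 between the cytochalasin D arrays. Between an array of one drug and an array of the other it was 0.355 to 0.401. The median absolute difference between replicates was 0.12 for cisplatin and 0.10 for cytochalasin D on the log2 scale. Of the H460 and other cell markers, which can show only differences between the drugs since ratios give no level, 0 of 8 epithelial markers passed limma's test, with differences of -0.31 to 0.35, and at an unadjusted p under 0.05 there were 2 higher and 1 lower. Of 8 markers of other cells tested, LUM, a fibroblast proteoglycan, passed, at -0.20 and -0.13 with cisplatin, against 0.58 and 0.41 with cytochalasin D. Its part in the results was not tested.

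Cisplatin and cytochalasin D differed at 534 of 6948 features tested (7.69%), a feature being a gene or an unnamed probe and the threshold a limma adjusted p under 0.05. With cisplatin, 365 were higher (5.25%) and 169 lower (2.43%). At an unadjusted p under 0.05 by limma there were 1648 of the 6948, both directions together. Leaving out any 1 of the 4 arrays brought the count of calls to 156 to 177: 158 and 170 without cisplatin replicates 1 and 2, and 156 and 177 without cytochalasin D replicates 1 and 2. Of the 365 and 169, 258 and 126 are named genes. The higher group held larger differences, 81 features with a difference of 1 or more on the log2 scale, against 11 in the lower group. Among the 365, the cisplatin mean lay at least 0.5 from 0 and the cytochalasin D mean within 0.5 in 138. The reverse was true in 46, and both means lay within 0.5 in 147. Among the 169, these counts were 58, 17 and 93. The scatter of the drug means shows these features on both sides of the diagonal.

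**Figure D1:**
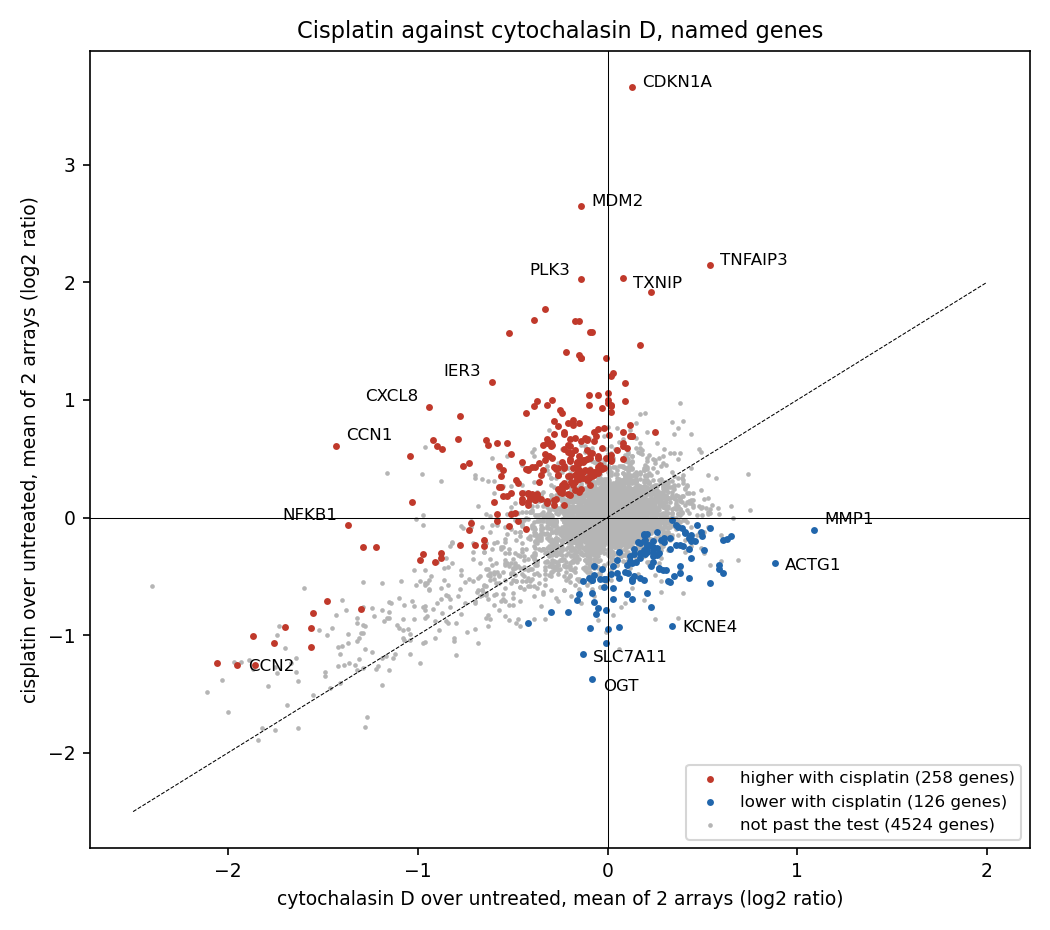
Mean log2 ratio of drug over untreated RNA for named genes, cisplatin on the vertical and cytochalasin D on the horizontal axis (2 arrays each). Red points are the 258 genes higher with cisplatin, blue points the 126 lower, grey points the rest; the dashed line marks equal values, and CDKN1A and MDM2 lie far above it at a cytochalasin D mean near 0.

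The gene that differed most was CDKN1A (p21), which codes for an inhibitor of cyclin-dependent kinases and lies at chr6:36676463-36687332 (GRCh38.p14). CDKN1A had log2 ratios of 3.12 and 4.20 with cisplatin, against 0.12 and 0.14 with cytochalasin D. The groups are far apart, although the cisplatin arrays differ from each other more than those of MDM2. The difference was 3.53 ± 0.30 (limma SE, n = 2 arrays each), an 11.5-fold difference, with an adjusted p of 0.00197. This SE, like those of the other differences, draws on the spread over all 8 arrays of 4 drugs. For CDKN1A the SD was 0.76 on the cisplatin arrays and 0.01 on the cytochalasin D arrays. MDM2, the ubiquitin ligase that degrades p53, at chr12:68808172-68850686, had 2.74 and 2.57 with cisplatin, against -0.22 and -0.05 with cytochalasin D. Its difference was 2.79 ± 0.14 (limma SE, adjusted p = 0.000361). Of the p53 list, 13 of 19 members tested were higher with cisplatin and 0 lower by limma, with a median difference of 1.30, against 0.00 over all features. At an unadjusted p under 0.05 these counts were 17 and 0. The sign common to the arrays was set with MDM2, CDKN1A and this list in 5-FU, so the direction is likely rather than stated, and the list is no independent evidence of it. Without single cisplatin or cytochalasin D arrays, 11 of its members were called each time.

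The other p53 genes fall into recognisable roles. Among damage recognition genes of nucleotide excision repair, DDB2 had 1.62 and 1.72 with cisplatin, against -0.16 and -0.14 with cytochalasin D, and XPC 1.39 and 1.76 with cisplatin, against -0.03 and -0.15 with cytochalasin D. For both genes the cisplatin arrays lie above the cytochalasin D arrays, as they do at 30.3% of all features tested, while they lie below them at 27.3%. The differences were 1.82 (adjusted p = 0.000526) and 1.67 (adjusted p = 0.00161). PLK3, a stress-responsive polo-like kinase, had 2.04 and 2.02 with cisplatin, against -0.12 and -0.15 with cytochalasin D. SESN1, a sestrin that restrains mTORC1, had 1.79 and 2.06 with cisplatin, against 0.22 and 0.24 with cytochalasin D. Both groups were tight, and the differences of 2.16 and 1.69 exceeded the spread between arrays. Among death genes, FAS, the CD95 death receptor, had 1.16 and 1.60 with cisplatin, against -0.10 and -0.20 with cytochalasin D. PMAIP1 (NOXA) had 0.83 and 0.51 with cisplatin and -0.72 and -0.87 with cytochalasin D, so the drugs lie on opposite sides of 0. BBC3 (PUMA) had 0.73 and 0.66 with cisplatin, against 0.17 and 0.09 with cytochalasin D, with an adjusted p of 0.0113 that did not hold without any 1 of these 4 arrays (0.0525 to 0.0769). RRM2B, a p53-induced subunit of ribonucleotide reductase, had 1.35 and 1.60 with cisplatin, against 0.26 and 0.09 with cytochalasin D, and CCNG1, cyclin G1, 0.74 and 0.53 with cisplatin, against -0.31 and -0.33 with cytochalasin D. Both passed, with differences of 1.30 and 0.95. EI24 (0.67) passed as well.

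PPM1D, the WIP1 phosphatase of the p53 feedback loop, was read by 3 probes that disagree. Their mean was 1.71 and 1.62 with cisplatin, against 0.07 and -0.41 with cytochalasin D. The probe differences were 2.92, 2.60 and 0.00. The p53 list members that did not pass were TP53I3 (0.34), TNFRSF10B (0.46), TNFRSF10C (0.29), CYFIP2 (0.53), TOB1 (0.00) and POLH (0.09). GDF15 and TRIAP1 had no values to test.

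In RefSeq's promoter table (GRCh38.p14, 250 bases before to 50 after a start), a full p53 response element, taken as a pair of consensus half-sites with 0 to 13 bases between them on either strand, lies at 0.0285% of 35116 starts. Of the 13 p53 genes that passed, 12 are in the table, and 1, DDB2, holds a match in this window. Where a gene has several starts, the first with a match is printed, here and below. The stretch, at chr11:47214954-47214999, plus strand, is printed to show where in the gene that match lies. Capitals mark the match, from base 6 to 26 of a transcript. That transcript starts inside the gene, whose listed start is 47214454.
DDB2: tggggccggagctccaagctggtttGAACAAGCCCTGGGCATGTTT

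**Figure D2:**
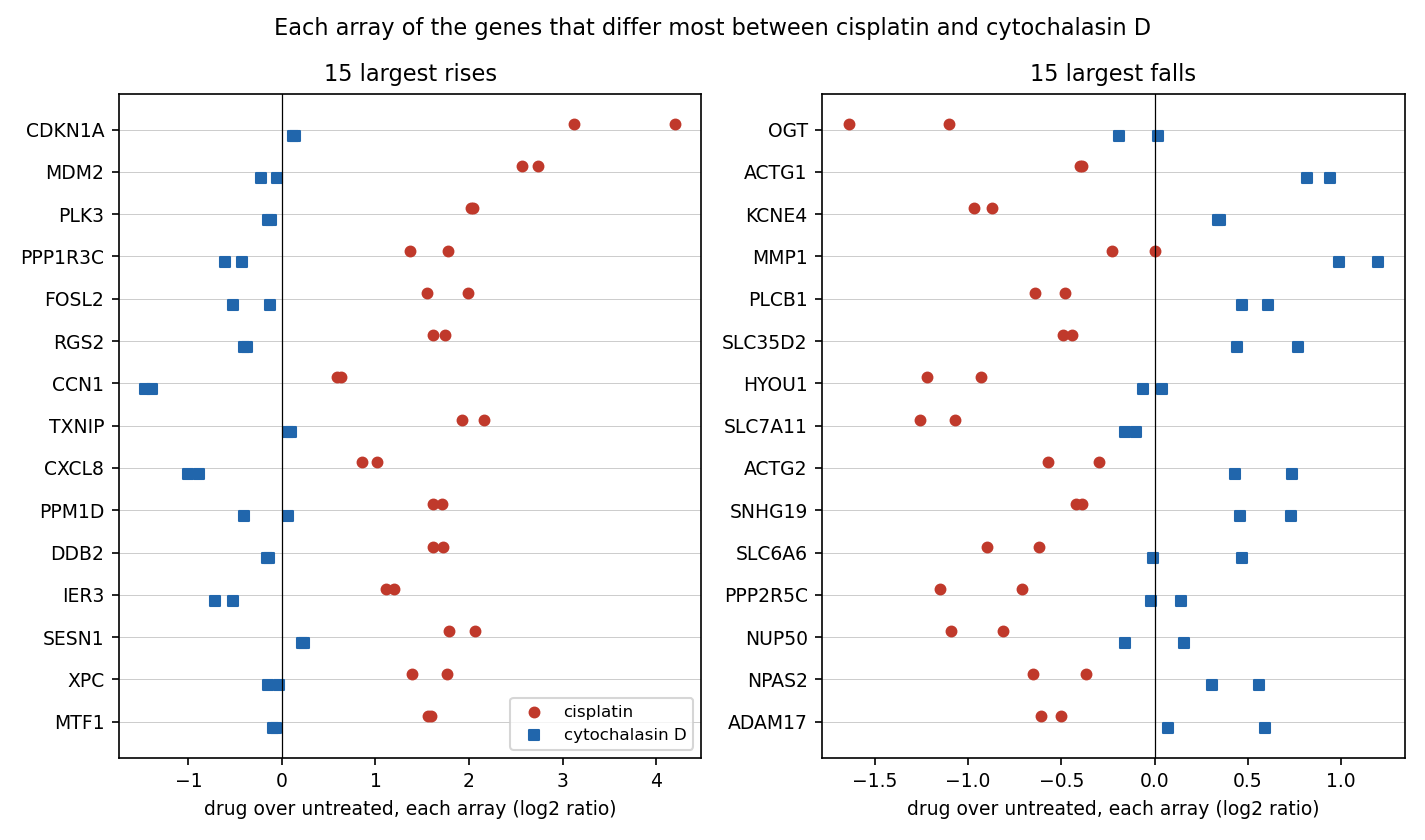
Log2 ratio of drug over untreated RNA on each array for the 15 genes with the largest rises (left) and falls (right) with cisplatin against cytochalasin D; red circles are cisplatin and blue squares cytochalasin D. In every gene shown the arrays of one drug lie beyond those of the other, because the genes were chosen so.

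On the other side, the genes of actin itself were lower with cisplatin and higher with cytochalasin D. ACTG1, cytoplasmic gamma-actin, at chr17:81509971-81512799, had -0.40 and -0.39 with cisplatin, against 0.94 and 0.82 with cytochalasin D. The arrays of each drug nearly coincide, and the difference was -1.27 ± 0.08 (limma SE, n = 2 each, adjusted p = 0.000872). ACTG2, smooth muscle gamma-actin, had -0.57 and -0.30 with cisplatin, against 0.43 and 0.74 with cytochalasin D (difference -1.02, adjusted p = 0.00858). ACTB, cytoplasmic beta-actin, had -0.22 and -0.34 with cisplatin, against 0.16 and 0.31 with cytochalasin D (difference -0.52, adjusted p = 0.0179). The 3 actins therefore differed in the same direction, with ACTG1 most and ACTB least. The actins are near-identical in sequence, so probes of one may read another. The call for ACTG2 did not hold without cisplatin replicate 1 (adjusted p = 0.0544), and that for ACTB did not hold without any 1 of the 4 arrays (0.056 to 0.107).

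Beyond the actins, most members of the actin and SRF list did not pass the test. Of 22 members tested, 3 were lower and 1 higher, with a median difference of 0.09, where 2.43% of all features were lower and 5.25% higher. ARPC5, a subunit of the Arp2/3 complex that nucleates branched filaments, had 0.29 and 0.16 with cisplatin, against -0.22 and -0.12 with cytochalasin D. It passed as higher (adjusted p = 0.0381), but not without any 1 of the 4 arrays. SRF itself had 0.44 and 0.57 with cisplatin, against -0.17 and 0.24 with cytochalasin D, and did not pass (adjusted p = 0.15). ACTN1 (0.40), CNN1 (0.61) and MYL6 (-0.08) also did not pass.

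The actin promoters are printed because both genes with a RefSeq promoter entry hold the letters that SRF reads. The CArG box, searched on both strands, is found at 1.29% of the starts in the table. ACTG1 (chr17:81512844-81512933, minus strand) has 1 match, at -94 to -85 from the start, and ACTG2 (chr2:73892858-73892984, plus strand) has 2, between -110 and -64. Capitals mark the matches. A match describes the letters and not binding.
ACTG1: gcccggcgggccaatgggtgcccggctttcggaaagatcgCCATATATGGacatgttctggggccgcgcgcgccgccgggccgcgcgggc
ACTG2: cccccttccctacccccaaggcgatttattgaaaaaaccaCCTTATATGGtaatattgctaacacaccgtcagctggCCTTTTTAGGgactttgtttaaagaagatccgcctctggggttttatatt

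CCN1 and CCN2, secreted matricellular proteins and classic YAP targets, were both higher with cisplatin than with cytochalasin D. CCN1 (CYR61), at chr1:85580761-85583950, had 0.59 and 0.63 with cisplatin, against -1.39 and -1.46 with cytochalasin D. The drugs lie on opposite sides of 0, by 2.04 ± 0.08 (limma SE, n = 2 each, adjusted p = 0.000148), a 4.11-fold difference. CCN2 (CTGF) had -1.23 and -1.28 with cisplatin, against -1.95 and -1.96 with cytochalasin D, so both drugs are below untreated cells and the difference of 0.70 passed (adjusted p = 0.00683). The call for CCN2 did not hold without cisplatin replicate 1 or without either cytochalasin D array (highest adjusted p = 0.0513). NT5E, the CD73 ectonucleotidase, went the other way, at -0.11 and -0.30 with cisplatin, against 0.42 and 0.46 with cytochalasin D (difference -0.65, adjusted p = 0.0204), and did not hold without any 1 of the 4 arrays. Of the 8 YAP targets tested, 2 were higher, 1 lower and 5 did not pass, where 5.25% of all features were higher and 2.43% lower.

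Of the adhesion and matrix list, 5 of 24 members tested passed as lower with cisplatin and 1 as higher, with a median difference of -0.15. The shares over all features were 2.43% lower and 5.25% higher. MMP1, interstitial collagenase, had 0.00 and -0.23 with cisplatin, against 1.20 and 0.99 with cytochalasin D (difference -1.21, adjusted p = 0.00467). Its cytochalasin D arrays stand more than 0.5 above untreated cells and its cisplatin arrays near 0. ITGA2, integrin alpha 2, had -0.62 and -0.96 with cisplatin, against -0.08 and 0.06 with cytochalasin D. ITGB1 (-0.48), LAMC1 (-0.56) and ADAM17, a sheddase of growth factors and cytokines (-0.89), were the other genes that were lower. ITGB3 was higher by 0.46 but below 0 with both drugs, at -1.14 and -1.07 with cisplatin, against -1.64 and -1.49 with cytochalasin D. Of the members that passed, only MMP1 held without each of the 4 arrays in turn.

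**Figure D3:**
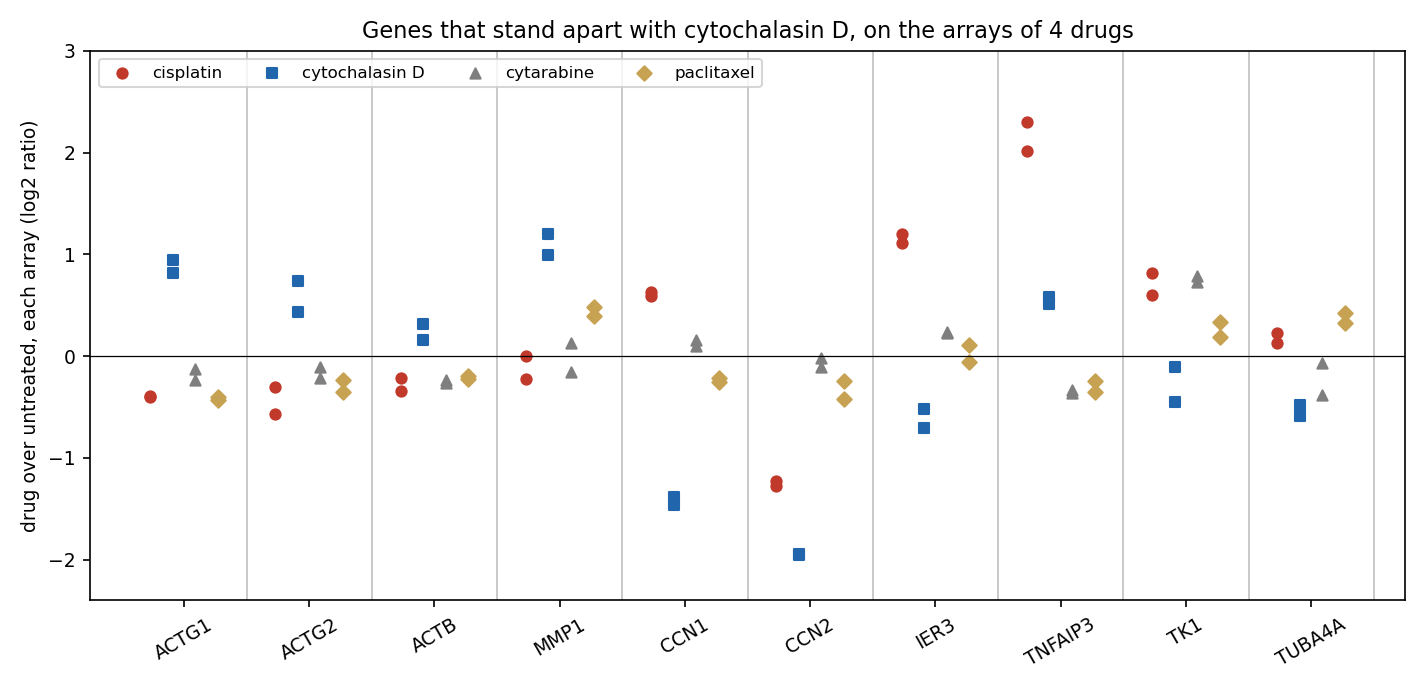
Log2 ratio of drug over untreated RNA on each array of cisplatin (red circles), cytochalasin D (blue squares), cytarabine (grey triangles) and paclitaxel (yellow diamonds) for 10 genes. The cytochalasin D arrays are highest for ACTG1, ACTG2, ACTB and MMP1 and lowest for CCN1, CCN2 and IER3.

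NF-kB drives cytokine and survival genes, and 6 of its 14 targets tested were higher with cisplatin and 0 lower by limma (7 and 0 at an unadjusted p under 0.05), with a median difference of 0.43. The shares over all features were 5.25% higher and 2.43% lower, and 1648 of 6948 at an unadjusted p under 0.05 in either direction. TNFAIP3 (A20), which restrains NF-kB signalling, had 2.01 and 2.30 with cisplatin, against 0.58 and 0.51 with cytochalasin D. Both drugs lie above untreated cells, and the difference was 1.61 (adjusted p = 0.00101). CXCL8 (interleukin 8) averaged 0.94 ± 0.11 with cisplatin, against -0.94 ± 0.07 with cytochalasin D (SD, n = 2 arrays each). The difference of 1.89 ± 0.11 (adjusted p = 0.000526) comes from opposite sides of 0. IL6 had 1.17 and 1.55 with cisplatin, against 0.02 and -0.03 with cytochalasin D, and its cytochalasin D arrays sit at 0. PLAU, the urokinase protease, had 1.10 and 1.02 with cisplatin and -0.13 and 0.13 with cytochalasin D. SOD2 (0.52) also passed. NFKB1 passed at 1.31 (adjusted p = 0.0269) with a different pattern: cisplatin arrays of -0.10 and -0.02, against cytochalasin D arrays of -0.97 and -1.77. The call for NFKB1 did not hold without either cisplatin array, either paclitaxel array or cytochalasin D replicate 2 (highest adjusted p without a cisplatin or cytochalasin D array 0.123), nor with the 4 arrays of both drugs alone. Without single arrays of these drugs, 3 to 5 members were called. CXCL10 (adjusted p = 0.0656) did not pass.

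The upstream windows of TNFAIP3, IL6 and CXCL8 are printed because these are the members with the largest differences that hold the NF-kB letters GGNNTTTCC (either strand), which occur at 6.26% of starts. Of the 6 NF-kB genes that passed, 4 have a match in the window, the fourth being NFKB1. Capitals mark the matches. TNFAIP3 is at chr6:137867152-137867242, IL6 at chr7:22727088-22727166 and CXCL8 at chr4:73740438-73740516, all on the plus strand. The TNFAIP3 window belongs to a start inside the gene, whose listed start is 137866349.
TNFAIP3: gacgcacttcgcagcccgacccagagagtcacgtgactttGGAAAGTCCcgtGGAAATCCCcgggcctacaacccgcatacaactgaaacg
IL6: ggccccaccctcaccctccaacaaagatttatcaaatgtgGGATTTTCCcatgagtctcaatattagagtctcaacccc
CXCL8: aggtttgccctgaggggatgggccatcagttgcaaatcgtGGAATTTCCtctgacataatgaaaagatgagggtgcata

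Immediate early genes respond quickly to signals, and 7 of 16 tested were higher with cisplatin and 1 lower, with a median difference of 0.27. All features tested had shares of 5.25% higher and 2.43% lower. RGS2, a regulator of G protein signalling, had 1.74 and 1.62 with cisplatin, against -0.40 and -0.37 with cytochalasin D (difference 2.07 ± 0.08, adjusted p = 0.000148). FOSL2, an AP-1 subunit, had 1.55 and 1.99 with cisplatin, against -0.13 and -0.52 with cytochalasin D, one of its 2 probes being missing on cytochalasin D replicate 1. IER3 had 1.11 and 1.20 with cisplatin, against -0.71 and -0.52 with cytochalasin D. All 3 are clear of overlap, as were all 365 features called higher. KLF10 (2.83-fold), EGR1 (0.95), NR4A1 (0.54) and SGK1 (0.63) were higher too, while KLF4 was lower, at -0.54. SGK1 lay below 0 with both drugs, at -0.24 and -0.47 with cisplatin, against -0.89 and -1.09 with cytochalasin D. Without single arrays of these drugs, 5 were called higher and 0 lower. Fos and Jun family members other than FOSL2 are represented by JUNB, which did not pass (-0.19).

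Genes of the G1/S transition and DNA replication were higher with cisplatin in 8 of 37 tested and lower in 0 by limma (19 and 1 at an unadjusted p under 0.05), with a median difference of 0.28. For this and the lists below, the shares over all features were 5.25% higher and 2.43% lower. At an unadjusted p under 0.05 there were 1648 of 6948 in either direction. RFC5, a clamp loader subunit, had 0.76 and 0.48 with cisplatin, against -0.75 and -0.50 with cytochalasin D (difference 1.25, adjusted p = 0.00273). RPA2, a subunit of the single-strand DNA binding complex, had 1.17 and 0.91 with cisplatin, against -0.02 and -0.18 with cytochalasin D (difference 1.14, adjusted p = 0.00532). Both held without each array left out. The G1/S regulators CDC25A and CCNE1 and the replication genes FEN1, MCM7, PRIM1 and POLA1 were the others that passed, with differences of 0.43 to 0.93. Without single arrays of these drugs the count was 3 to 4. In nucleotide metabolism, TK1, thymidine kinase, had 0.60 and 0.82 with cisplatin, against -0.45 and -0.11 with cytochalasin D, and TYMS, thymidylate synthase, 0.03 and 0.34 with cisplatin, against -0.56 and -0.55 with cytochalasin D. They were the 2 of 17 that passed as higher. Leaving out cisplatin replicate 2 ended the call of TK1 (adjusted p = 0.0594), and TYMS was not called without either cytochalasin D array (highest adjusted p = 0.0688). Of 26 DNA repair genes, 3 were higher (MRE11, REV3L and ATM) and MGMT, which removes alkyl groups from guanine, was lower, at -0.58 and -0.44 with cisplatin, against 0.15 and 0.18 with cytochalasin D (difference -0.68). Those repair calls did not hold without any 1 of the 4 arrays.

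Redox and amino acid genes split. TXNIP, which binds thioredoxin, had 1.93 and 2.16 with cisplatin, against 0.10 and 0.07 with cytochalasin D (difference 1.96, adjusted p = 0.000808). ALDH3A1, an aldehyde dehydrogenase, had 0.86 and 1.07 with cisplatin, against -0.37 and -0.27 with cytochalasin D. SLC7A11, which imports cystine for glutathione, had -1.07 and -1.26 with cisplatin, against -0.10 and -0.16 with cytochalasin D (difference -1.03, adjusted p = 0.00201). TXNRD1, thioredoxin reductase, was also lower, at -0.50, as was PYCR1, of proline synthesis, at -0.56. Of 16 genes of the NRF2 and redox list, 4 were higher and 2 lower, and of 19 of the amino acid list 0 were higher and 2 lower (0 and 7 at an unadjusted p under 0.05, limma). All features together had 5.25% higher and 2.43% lower, and 1648 of 6948 at an unadjusted p under 0.05 in either direction. Without single arrays of these drugs, 2 members of the first list were called higher and 1 lower, and 1 of the amino acid list lower. Of the other falls past the test, OGT, the enzyme that adds N-acetylglucosamine to proteins, had -1.64 and -1.10 with cisplatin, against 0.02 and -0.19 with cytochalasin D. KCNE4, a potassium channel subunit, had -0.87 and -0.97 with cisplatin, against 0.35 and 0.34 with cytochalasin D. Of the 15 largest falls, ACTG1, KCNE4, MMP1 and SLC7A11 held without each of the 4 arrays, while the other calls were lost with at least 1 array left out (highest adjusted p 0.0544 for ACTG2 to 0.195 for OGT).

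**Figure D4:**
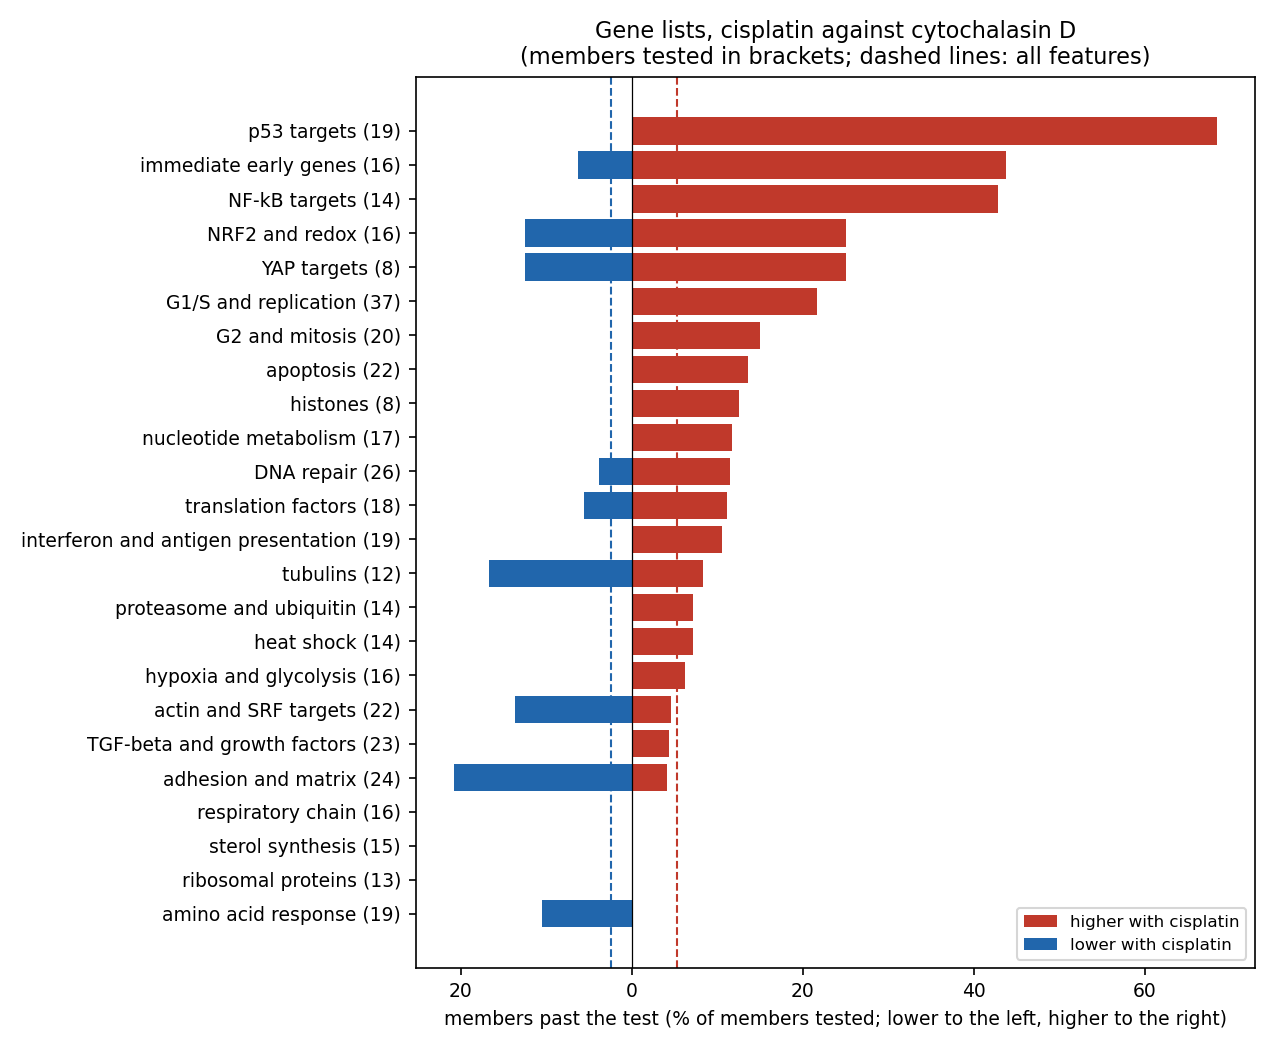
Share of the members tested that passed as higher (red, to the right) or lower (blue, to the left) with cisplatin against cytochalasin D, in percent, with the number tested in brackets. Dashed lines are the shares over all features, 5.25% and 2.43%. The p53, immediate early and NF-kB lists extend far to the right of the line for higher. Because the lists were chosen with earlier results of these data known, such an excess is no independent evidence.

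In most of the remaining lists few members passed. In G2 and mitosis 3 of 20 members were higher (AURKA, CENPA and HMGB2), and in apoptosis 3 of 22, all 3 also p53 targets. Of 18 translation factors, EIF3B and EIF5 were higher and EIF2S3 lower, with calls that did not hold without single arrays. Among tubulins TUBA4A was higher, at 0.71, and TUBB4A and TUBGCP2 lower, at -0.42 and -0.50, though the 2 TUBGCP2 probes differ (-0.94 and -0.05). The G2, mitosis and tubulin calls did not hold without any 1 of the 4 arrays. Ribosomal proteins (13 tested), sterol synthesis (15) and the respiratory chain (16) had 0 members that passed by limma. At an unadjusted p under 0.05 there were 1 higher and 2 lower in the ribosomal list, 2 and 2 in sterol synthesis and 1 and 2 in the respiratory chain. Over all features there were 1648 of 6948, and 5.25% passed as higher and 2.43% as lower.

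Other large differences lay outside the themes above. PPP1R3C, which targets protein phosphatase 1 to glycogen, had 1.78 and 1.37 with cisplatin, against -0.61 and -0.43 with cytochalasin D (difference 2.09, adjusted p = 0.00269). MTF1, the metal-responsive transcription factor, had 1.59 and 1.56 with cisplatin, against -0.10 and -0.06 with cytochalasin D (difference 1.66, adjusted p = 0.000985). Both stand well clear of the cytochalasin D arrays, and both held without each array. Among the falls, HYOU1, a chaperone of the endoplasmic reticulum, had -0.93 and -1.22 with cisplatin, against -0.06 and 0.04 with cytochalasin D. PLCB1, a phospholipase C, had -0.48 and -0.64 with cisplatin, against 0.47 and 0.61 with cytochalasin D, so the drugs lie on opposite sides of 0. NUP50, a nucleoporin, had -1.09 and -0.81 with cisplatin, against -0.16 and 0.16 with cytochalasin D. In NUP50 and HYOU1 it is the cisplatin arrays that depart from 0. The taurine transporter SLC6A6 (-0.99), the sugar nucleotide transporter SLC35D2 (-1.07), the phosphatase subunit PPP2R5C (-0.99), the clock factor NPAS2 (-0.94) and the RNA SNHG19 complete the largest falls.

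Members of further lists passed as well. Of 19 interferon and antigen presentation genes tested, 2 were higher and 0 lower by limma (4 and 0 at an unadjusted p under 0.05). Over all features, 5.25% passed as higher and 2.43% as lower, and 1648 of 6948 had an unadjusted p under 0.05. IFI16, a sensor of DNA, had 0.59 and 0.54 with cisplatin, against -0.18 and -0.04 with cytochalasin D (difference 0.67, adjusted p = 0.00596), and held without each array. TGFBR1, the type I receptor of TGF-beta, had 0.80 and 0.84 with cisplatin, against -0.44 and -0.13 with cytochalasin D (difference 1.10, adjusted p = 0.0197). HIF1A, the oxygen-regulated transcription factor, had 0.17 and 0.09 with cisplatin, against -0.44 and -0.45 with cytochalasin D (difference 0.58, adjusted p = 0.0113). These were the 1 of 23 genes of the TGF-beta list and the 1 of 16 of the hypoxia list that passed, and neither gene held without any 1 of the 4 arrays. TAP1, the peptide transporter of antigen presentation and the other member of its list that passed (0.48), BAG1, a cochaperone (0.52), and PSMA4, a proteasome subunit (0.47), were also higher, with calls that did not hold without single arrays.

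To see on which side a gene stood apart, each drug was also set against the mean of cytarabine and paclitaxel, drugs of the same orientation; these comparisons share arrays with the one above and are no independent support. Cisplatin differed from that mean at 1260 of 6544 features (19.3%), 11.8% higher and 7.41% lower. Cytochalasin D differed from it at 65 of 6531 (0.995%), 0.582% higher and 0.413% lower. With each array left out in turn these counts were 403 to 1179 and 5 to 44. Pearson's r across probes was 0.349 to 0.442 between a cisplatin array and an array of cytarabine or paclitaxel. For a cytochalasin D array it was 0.629 to 0.671, and between cytarabine and paclitaxel arrays 0.708 to 0.725. Whether the arrays of cytochalasin D, cytarabine and paclitaxel share something other than a drug effect was not tested. Against the mean of cytarabine and paclitaxel, CDKN1A stood at 3.46 for cisplatin and -0.07 for cytochalasin D, and MDM2 at 2.85 for cisplatin and 0.05 for cytochalasin D. For ACTG1 the values were -0.09 for cisplatin (adjusted p = 0.386) and 1.18 for cytochalasin D (adjusted p = 0.00083). ACTG2 (0.81), ACTB (0.47) and MMP1 (0.88) also passed on the cytochalasin D side and not on the cisplatin side. Their limma adjusted p on the cytochalasin D side was 0.0368, 0.043 and 0.031, near the threshold. CCN1 passed on both, at 0.66 for cisplatin and -1.37 for cytochalasin D, and so did IER3, at 1.02 for cisplatin and -0.74 for cytochalasin D. CCN2 was below the other drugs for both, at -1.05 with cisplatin and -1.76 with cytochalasin D. TNFAIP3 was above them for both, at 2.48 for cisplatin and 0.87 for cytochalasin D. TK1 (-0.79) and TUBA4A (-0.60) passed as lower on the cytochalasin D side (limma adjusted p = 0.0368 and 0.0494) and not on the cisplatin side. Whether single genes kept their calls in these comparisons with arrays left out was not tested.

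**Figure D5:**
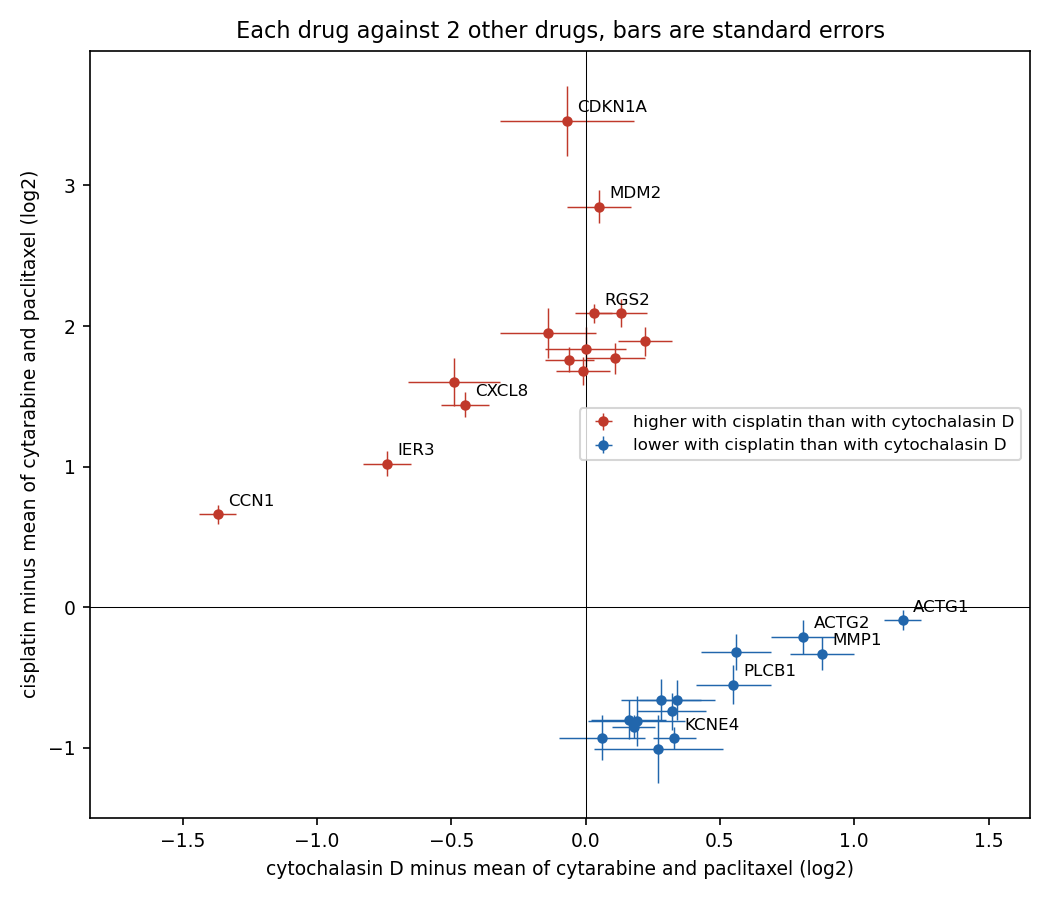
Difference from the mean of cytarabine and paclitaxel on the log2 scale, cisplatin on the vertical and cytochalasin D on the horizontal axis, for those of the 15 largest rises (red) and falls (blue) that have all values; bars are standard errors. CDKN1A and MDM2 lie on the cisplatin axis, ACTG1 on the cytochalasin D axis, and CCN1 and IER3 between them.

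Some of the higher calls concern genes that were low with cytarabine and paclitaxel. Of 196 features with a mean of cytarabine and paclitaxel at or below -1, the cisplatin mean was above the cytochalasin D mean in 160, and 19 passed as higher and 0 as lower. Among all features tested, 5.25% passed as higher and 2.43% as lower. The median difference was 0.23 in the 196, against 0.00 over all features. The median log2 ratio of the 196 was -0.92 with cisplatin and -1.15 with cytochalasin D. ATM is one, at -0.71 and -0.86 with cisplatin, against -1.28 and -1.31 with cytochalasin D, and UGT1A10 another, at -1.12 and -1.02 with cisplatin, against -1.72 and -1.79 with cytochalasin D. NFKB1 also meets this limit, but it is near 0 with cisplatin while low with cytochalasin D. SGK1 and ITGB3 meet it as well, and both lie below 0 with both drugs. The 5-FU arrays were not used here.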

How the data were processed

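Per the labels, RNA of treated H460 cells (channel 1) was hybridised against RNA of untreated cells (channel 2). The values deposited by the authors are taken here as log2 ratios. The sources used here give no log base, numerator, normalization or spot filter. A natural logarithm would change sizes and the counts at a minimum difference, but no call by adjusted p. Signs were set so that MDM2 (1.15 to 1.80), CDKN1A and the p53 list were positive in 5-FU. Signal over background could not be read from ratios, and the number of arrays limits the precision.

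Each array was centred on its median and probes of a gene were averaged. Of 8170 probes, 5930 match 1 gene, 79 several and 2161 none in the platform annotation. These gave 7739 features, of which 6948 had values on all 4 arrays. Per feature, limma 3.58.1 (R 4.3.3) fitted one mean per drug to the 8 arrays of cisplatin, cytochalasin D, cytarabine and paclitaxel, with Benjamini-Hochberg adjusted p under 0.05 over all features.

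Members and the 27 lists were chosen with earlier results of these data known. One list is not reported here. Genes were named from the 15 largest rises and falls past the test, the 4 largest differences per list and a few fixed genes. Most list members that passed are named too, but not every gene under this rule is printed. The rises and falls had to have both arrays of one drug beyond those of the other, which all 365 and 169 called features met. Same-numbered arrays of the drugs showed little shared deviation (r = -0.0611 between cisplatin and cytochalasin D). Whether the numbers pair cultures or untreated RNA cannot be read from this. Alternatives were other sets of arrays, a replicate block, no centring, scaling, other rules for missing values, single probes, robust moderation, a minimum difference and leaving out each array. Promoters are RefSeq's, GRCh38.p14.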

Additional observations from a re-analysis of the deposited data

How the results depend on the processing

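With each array left out in turn, cisplatin and cytochalasin D differed at 156 to 516 features, 121 to 351 higher and 29 to 165 lower. Leaving out a cisplatin or cytochalasin D array gave 156 to 177, with the lone array assumed to vary like the other groups. With only the 4 arrays of both drugs, 383 passed, 271 higher and 112 lower. With a minimum difference of 1, 92 passed, 81 higher and 11 lower. The replicate block gave 445, although the labels do not say whether its numbers pair the samples. Cisplatin against the mean of cytarabine and paclitaxel gave 403 to 1179 with each array left out and 87 with the minimum difference. Cytochalasin D against that mean gave 5 to 44 with each array left out, 21 with the replicate block, 109 with arrays scaled to the same spread and 8 with the minimum difference. The cause was not tested, beyond fewer arrays or a stricter rule. Of 72 named genes past the test, 28 kept their call in every setting. PSMB4, which never passed, turned to 0.04 without cytochalasin D replicate 1, and was -0.54 without the other array of that drug. Signal over background is unknown, and the 2 arrays per drug limit what can be called.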

Other observations

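Several genes outside the rule for named genes, chosen after their values were seen, differed between cisplatin and cytochalasin D as much as those named. EXO1, an exonuclease of mismatch repair and end resection, had 0.49 and 0.54 with cisplatin, against -0.98 and -1.11 with cytochalasin D (difference 1.56, limma adjusted p = 0.000526). BARD1, the partner of BRCA1, had 0.75 and 0.51 with cisplatin, against -0.47 and -0.69 with cytochalasin D. TNFRSF12A, the receptor of TWEAK, had 0.82 and 0.91 with cisplatin, against -0.61 and -0.95 with cytochalasin D. In all of these the drugs lie on opposite sides of 0. CD70, a ligand of the TNF family, had 1.38 and 1.34 with cisplatin, against -0.26 and -0.01 with cytochalasin D.

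In the other direction, CTSV, a lysosomal cysteine protease, had -0.65 and -0.63 with cisplatin, against 0.21 and 0.20 with cytochalasin D (difference -0.85, limma adjusted p = 0.00197). HEXIM1, an inhibitor of the elongation factor P-TEFb, had -0.14 and -0.17 with cisplatin, against 0.65 and 0.65 with cytochalasin D. HSPA8, a constitutive HSP70 chaperone, was higher than the mean of cytarabine and paclitaxel by 0.86 for cisplatin and 0.90 for cytochalasin D, and did not differ between the 2 drugs past the test (-0.04).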
